A study of Mus musculus with 7 samples.

Results

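The Kv3 channel genes Kcnc1, Kcnc2 and Kcnc4 were followed across cell classes of the mouse cortex, chosen by name as 3 of the 25870 cellular genes of the UMI tables. A UMI is a molecular tag that counts each captured transcript once. Kv3 channels are voltage-gated potassium channels that open only at depolarized voltages and close quickly. They repolarize the membrane fast enough for a neuron to fire again within a short time, and are best known from parvalbumin interneurons, which fire brief action potentials at high rates. Kcnc1 encodes Kv3.1 and Kcnc2 encodes Kv3.2, both non-inactivating. Kcnc4 encodes Kv3.4, which inactivates.

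Transcripts were measured by inDrops single-nucleus RNA-Seq (snRNA-Seq) in 1 sample, the primary visual cortex (V1) of C57BL/6J mice aged 6 to 10 weeks. The mice had been injected with AAV9 carrying the PESCA library, a pool of candidate regulatory elements that each drive a barcoded reporter. No uninjected snRNA-Seq sample was analysed here. Chromatin accessibility was measured by ATAC-Seq in 2 replicates each of SST, PV and VIP interneurons, from whole cortex of uninjected mice aged 6 to 12 weeks. Their nuclei were collected by an anti-GFP antibody from crosses of Sst-IRES-Cre, Pv-Cre or Vip-IRES-Cre with SUN1-2xsfGFP-6xMYC, so each group holds the cells in which that Cre driver had acted at any time, and all 3 groups share the nuclear GFP tag. The labels give the mice as male, the methods as male and female.

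The snRNA-Seq sample held 10 libraries in 2 sets of 5. No label names the animals, although the methods describe 5 libraries from each animal. Nuclei were the 31896 of 47348 barcodes that exceeded 200 UMIs after viral columns were set aside, with a median of 713 UMIs. Libraries held 2448 to 3555 such nuclei. The 31896 nuclei carried 25579 distinct barcodes, and 11685 nuclei (36.63%) had a barcode that was also found in another library. The 8 pairs of neighbouring libraries of a set shared 334 to 796 barcodes, the other 37 pairs 48 to 204. Leaving out every nucleus with a shared barcode, a check added after the data were seen, left the PV to excitatory ratios reported below at 14.4 for Kcnc1, 13.1 for Kcnc2 and 0.0892 for Kcnc4. With 1 sample and no label that ties a library to an animal, no test between classes of nuclei was run. Intervals on summed UMIs are exact 95% Poisson intervals, those on shares are exact 95% binomial intervals, and both cover counting error only.

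Nuclei were sorted into classes by marker UMIs, none of which came from a Kv3 gene. Each interneuron needed a UMI of Gad1, Gad2 or Slc32a1 and at most 1 UMI of 5 excitatory genes, and was placed by Sst (2 UMIs), Pvalb, Vip or Npy (1 UMI each), with limits on the other markers. An excitatory nucleus needed 2 UMIs of the excitatory genes and none of the GABA genes. These gates gave 477 PV, 562 SST, 338 VIP, 355 NPY and 7918 excitatory nuclei. A further 2119 GABA nuclei had no UMI of Sst, Pvalb, Vip or Npy. They can hold any interneuron type whose marker was not captured, and other nuclei with a stray GABA UMI. Of the excitatory nuclei, 5470 could be given no layer. Another 14845 nuclei (46.54%) entered no class. Gad1, which makes GABA, stood at 26.9 UMIs per 10000 in PV nuclei, 12.8 in SST nuclei, 21.9 in VIP nuclei and 0 in excitatory nuclei, as the gates require. Slc17a7, a vesicular glutamate transporter, stood at 7.09 in excitatory nuclei. In the GABA nuclei without a marker UMI Slc17a7 stood at 1.15 and Gad1 at 9.03, and the share of other cells among them was not tested. Slc17a7 was at most 0.337 in the PV, SST, VIP and NPY classes. Glial transcripts were present in each of them. The 4 astrocyte markers summed to 2.33 (PV) to 6.74 (VIP) UMIs per 10000 and the 4 oligodendrocyte markers to 2.18 (SST) to 3.68 (PV). In the glial classes themselves they summed to 123 and 342, and their part in the results was not tested. The layer 5 IT (intratelencephalic) markers summed to 7.99 in PV, 7.03 in NPY, 4.68 in VIP and 1.53 in SST nuclei. In layer 5 IT nuclei they summed to 18.2, and their part was not tested either.

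In GRCm38, which is mm10, Kcnc1 lies on chromosome 7 from 46396497 to 46438704 on the plus strand, Kcnc2 on chromosome 10 from 112271121 to 112467024 on the plus strand, and Kcnc4 on chromosome 3 from 107438303 to 107459552 on the minus strand. No other protein-coding gene of GENCODE vM21 held the centre of an accessible region inside them, and non-coding genes were not checked. RefSeq promoter windows of 300 bases are shown 5′ to 3′ along each gene, chosen because accessible regions over them are compared below, with capitals for GGGCGG (a GC box), TAATTA (a homeodomain core) or TGACTCA (an AP-1 site) on either strand. The windows are chr7:46396218-46396517 for Kcnc1, chr10:112269767-112270066 for Kcnc2 and chr3:107458849-107459148 for Kcnc4. The Kcnc4 window lies inside the gene as GENCODE draws it. For Kcnc2 RefSeq gives 4 windows, and the one shown overlaps a tested accessible region.
Kcnc1 promoter: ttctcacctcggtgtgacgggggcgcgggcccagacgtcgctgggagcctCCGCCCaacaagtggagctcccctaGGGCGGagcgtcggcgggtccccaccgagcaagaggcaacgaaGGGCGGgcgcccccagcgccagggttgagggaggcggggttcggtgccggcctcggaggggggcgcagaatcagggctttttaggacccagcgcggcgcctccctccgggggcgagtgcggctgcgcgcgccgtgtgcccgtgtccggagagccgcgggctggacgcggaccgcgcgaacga
Kcnc2 promoter: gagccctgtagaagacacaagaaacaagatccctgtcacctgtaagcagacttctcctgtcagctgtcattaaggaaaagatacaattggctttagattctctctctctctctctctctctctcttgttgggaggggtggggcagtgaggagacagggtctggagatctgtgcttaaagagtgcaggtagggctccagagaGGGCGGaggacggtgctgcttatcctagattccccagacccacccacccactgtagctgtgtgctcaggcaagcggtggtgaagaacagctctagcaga
Kcnc4 promoter: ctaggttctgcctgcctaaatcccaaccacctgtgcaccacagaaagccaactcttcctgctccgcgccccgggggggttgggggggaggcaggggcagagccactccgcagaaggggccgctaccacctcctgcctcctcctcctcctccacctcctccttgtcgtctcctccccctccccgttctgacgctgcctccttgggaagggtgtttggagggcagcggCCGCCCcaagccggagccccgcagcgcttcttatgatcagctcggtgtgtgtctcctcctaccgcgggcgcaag
The Kcnc1 window is the richest in CpG, with 41 CpG and 74.67% G or C, against 17 CpG and 66.67% for Kcnc4 and 3 CpG and 52.67% for this start of Kcnc2. The median over 32851 promoter windows was 7 CpG. GGGCGG was found 3 times before Kcnc1 and once in each of the others, and 35.7% of all windows held it. None of the 3 windows held TATAAA (the TATA box, in 13.6% of all windows) or TGACGTCA (the cAMP response element, in 1.79%). Both strands were searched.

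Kcnc1 was highest in PV nuclei. Its level there was 17.9 UMIs per 10000 UMIs (interval 16.9 to 19.0, 1091 UMIs). Across the 10 libraries the PV level ran from 14.6 to 21.5 with a median of 17.6. The next classes were NPY at 6.94, SST at 5.38 and VIP at 4.27. NPY and SST differed by 1.56, and SST and VIP by 1.11, less than the SD over libraries of 1.56 to 1.97 in these classes. By that measure these neighbours in the order were not separated. The counting intervals excluded 1, at 0.776 (0.653 to 0.923) for SST to NPY and 1.26 (1.01 to 1.58) for SST to VIP. SST was lower than NPY in 6 of 10 libraries and higher than VIP in 7. The PV range lay above the SST range of 3.18 to 7.81, the NPY range of 3.78 to 9.18 and the VIP range of 1.47 to 6.78, with no overlap. The ratio of PV to SST was 3.33 (2.93 to 3.78), that of PV to NPY 2.58 (2.24 to 2.99) and that of PV to VIP 4.196 (3.46 to 5.14), each with PV higher in 10 of 10 libraries. The GABA nuclei without a marker UMI, which are not among the classes ordered here, stood at 4.33 (4.04 to 4.64), between SST and VIP.

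Against excitatory nuclei, Kcnc1 in PV nuclei was 14.8 times as high (13.6 to 16.05). The excitatory level was 1.21 (1165 UMIs), from 0.928 to 1.54 over libraries. Excitatory nuclei were higher in each of the 5 libraries of set 1 (1.21 to 1.54) than in each of set 2 (0.928 to 1.16), and the PV to excitatory ratio was 12.7 in set 1 and 17.1 in set 2. Among the layers, layer 2/3 stood at 1.60, layer 5 IT (intratelencephalic) at 0.986, layer 4 at 0.968, layer 6 at 0.865 and layer 5 PT (pyramidal tract) at 0.519. Layer 2/3 was higher than layer 5 PT in 10 of 10 libraries, with overlapping ranges of 0.831 to 1.97 and 0 to 1.34, but the layer 5 PT level lay under the 0.837 of oligodendrocyte nuclei, so no fold is given. The layers from layer 5 IT down to layer 5 PT were within 1 SD of their neighbour or of the glial class between them.

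Kcnc2 was also highest in PV nuclei, and SST nuclei stood second. Its PV level was 15.2 (14.2 to 16.2, 924 UMIs), from 10.8 to 22.0 over libraries with a median of 14.1. Its SST level was 9.25 (8.49 to 10.1, 543 UMIs), from 6.39 to 13.2 with a median of 8.81. The PV and SST ranges overlapped, and PV was higher in 9 of 10 libraries, with a ratio of 1.64 (1.47 to 1.83). SST was 3.29 times as high as VIP (2.58 to 4.25) and 2.44 times as high as NPY (2.01 to 2.99), each in 10 of 10 libraries. The SST and VIP ranges did not overlap, while those of SST and NPY did. VIP at 2.81 and NPY at 3.78 were closer to each other than 1 SD over libraries. Their counted ratio, NPY to VIP, was 1.35 (1.005 to 1.82), with NPY higher in 6 of 10 libraries. The GABA nuclei without a marker UMI stood above both, at 4.59 (4.28 to 4.91).

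PV nuclei held 12.6 times the Kcnc2 level of excitatory nuclei (11.6 to 13.8), in 10 of 10 libraries. The excitatory level was 1.20, from 0.909 to 1.61 over libraries. SST nuclei held 7.70 times the excitatory level (6.94 to 8.53). By layer, Kcnc2 stood at 1.65 in layer 4, 1.52 in layer 2/3, 0.804 in layer 5 IT, 0.564 in layer 5 PT and 0.394 in layer 6. The libraries ran from 1.11 to 2.02 in layer 2/3 and from 0 to 1.07 in layer 6, with no overlap. The levels of layer 6 and layer 5 PT lay under the 0.670 of oligodendrocyte nuclei, so no fold over them is given. Layer 4 and layer 2/3 were not separated, since they differed by 0.131 against an SD of 0.835.

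Kcnc4 was low in PV nuclei, where only vascular nuclei of the 14 classes stood lower. Only 7 UMIs of Kcnc4 fell in the 477 PV nuclei, a level of 0.115 (0.0462 to 0.237). No Kcnc4 UMI was seen in the PV nuclei of 7 of the 10 libraries, and the highest library stood at 0.521. Excitatory nuclei held 1224 UMIs at a level of 1.27, from 1.10 to 1.43 over libraries, so the ranges did not overlap. The excitatory level was higher in 10 of 10 libraries. The PV level lay under the 0.251 of oligodendrocyte nuclei (0.141 to 0.414), so no fold over it is given, and the ratios of PV to other classes below are as counted. Library 2-3 held 4 of the 7 PV UMIs, and without it the counted ratio of PV to excitatory nuclei moved from 0.0901 to 0.0448, while with no limits on other markers in the gates it was 0.143. In library set 1 alone it was 0.033, and in set 2 alone 0.126.

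SST nuclei held Kcnc4 at 0.937, from 0.156 to 1.70 over libraries, higher than PV in 9 of 10 libraries. VIP nuclei stood at 0.487 (0.259 to 0.832) on 13 UMIs, an interval that overlaps that of oligodendrocyte nuclei. They were higher than PV in 6 libraries, lower in 1 and both at 0 in 3. Without library 2-3 the counted ratios of PV to SST and to VIP moved from 0.123 to 0.0631 and from 0.236 to 0.107, and with no limits on other markers they were 0.198 and 0.443. In set 1 alone they were 0.04 and 0.111, and in set 2 alone 0.191 and 0.271. The GABA nuclei without a marker UMI stood at 0.935 (0.801 to 1.08). NPY was the highest class at 1.61, from 0.732 to 2.93, and did not overlap PV. Layer 6 at 1.60, layer 4 at 1.44, astrocytes at 1.21, layer 5 IT at 1.14, layer 5 PT at 1.06 and layer 2/3 at 1.02 followed NPY. No neighbours in the order of all 14 classes differed by more than 1 SD over libraries. Layer 6 was 1.57 times layer 2/3 (1.23 to 2.01), in 8 of 10 libraries. The 4 astrocyte markers summed to 19.0 UMIs per 10000 in layer 6 and 19.1 in layer 4 against 9.99 in layer 2/3, and to 7.96 and 11.6 in layers 5 PT and 5 IT. Astrocyte nuclei held Kcnc4 at 1.21, and the part of astrocyte RNA in these differences was not tested.

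**Figure D1:**
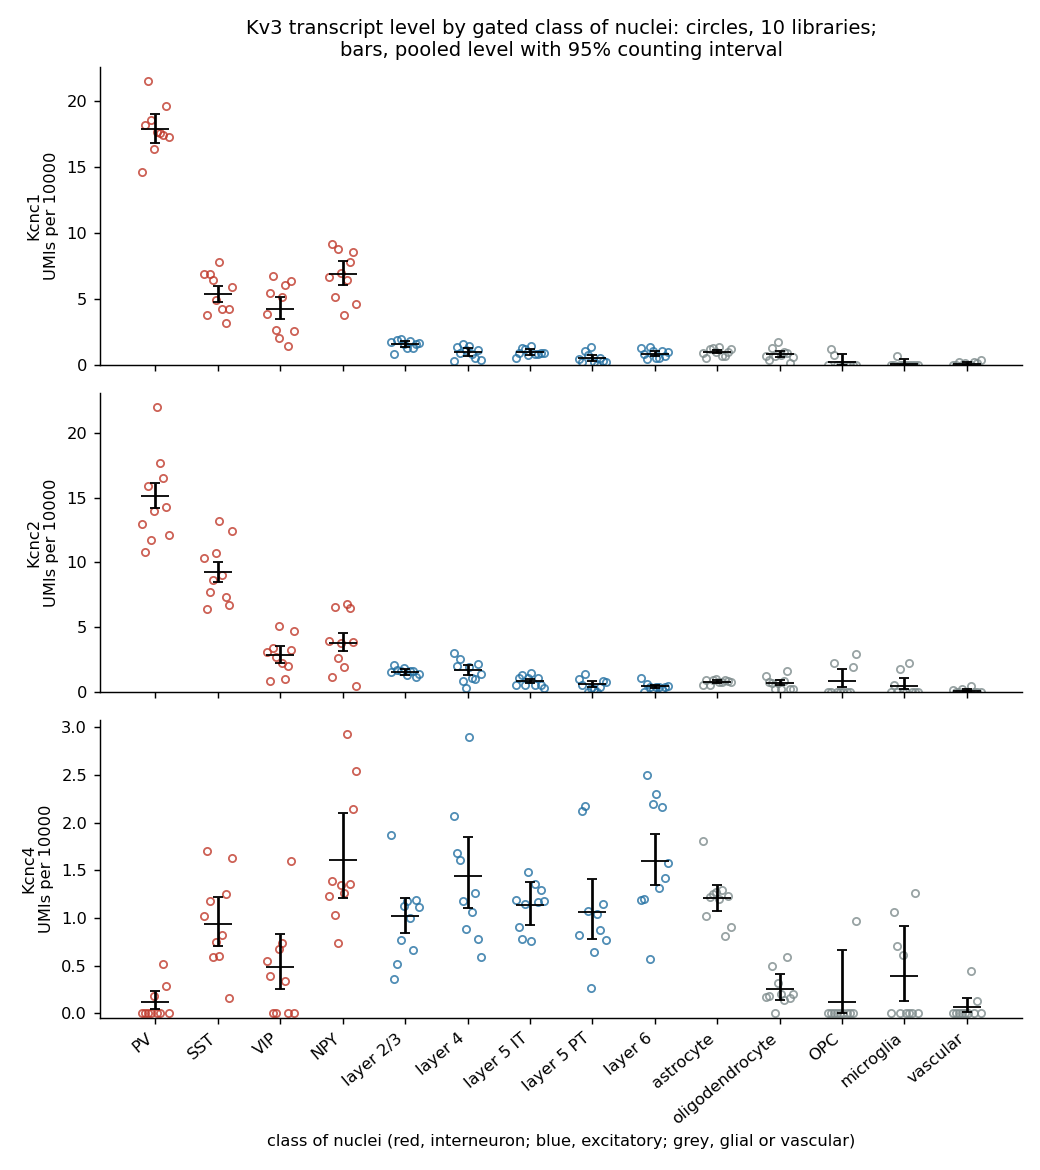
Level of each gene in UMIs per 10000 non-viral UMIs (vertical axes) in 14 classes of nuclei (horizontal axis), with a circle for each of the 10 libraries and a black bar with the 95% counting interval for the pooled level. Kcnc1 and Kcnc2 stand highest in PV nuclei, at 17.9 and 15.2, Kcnc2 is next in SST nuclei at 9.25, and Kcnc4 lies at 0.115 in PV nuclei with 7 libraries at 0.

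In the 15445 barcodes of 200 or fewer UMIs, which can hold free RNA, Kcnc1 stood at 2.43, Kcnc2 at 1.75 and Kcnc4 at 1.09 UMIs per 10000. The excitatory levels of Kcnc1, 1.21 (1.14 to 1.28), and Kcnc2, 1.20 (1.13 to 1.27), lay under these values. They lay above those of oligodendrocyte nuclei, a class taken here as one that should lack them, at 0.837 (0.621 to 1.10) for Kcnc1 and 0.670 (0.478 to 0.912) for Kcnc2. In vascular nuclei, which have a median of 1184.5 UMIs against 305 in oligodendrocyte nuclei, the levels were 0.109 and 0.0779. For Kcnc4, PV (0.115), SST (0.937), VIP (0.487), layer 2/3 (1.02) and layer 5 PT (1.06) nuclei lay under the 1.09 of these small barcodes. NPY nuclei, excitatory nuclei as a whole and the other layers lay above it. The Kcnc4 level of 1.21 in astrocyte nuclei came with 5 excitatory genes summing to 3.89 per 10000, against 19.3 to 25.3 in the layer classes, 2.61 in oligodendrocyte nuclei and 0.577 in vascular nuclei, and the part of excitatory RNA in that level was not tested.

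Shares of nuclei with a UMI were compared after thinning each nucleus to 300 UMIs, because PV nuclei had a median of 1215 UMIs, SST nuclei 958.5, VIP nuclei 703 and excitatory nuclei 1099. At this depth 41.9% of 463 PV nuclei held a Kcnc1 UMI (37.4% to 46.5%), against 13.6% of 523 SST nuclei, 13.5% of 304 VIP nuclei and 16.6% of 331 NPY nuclei. The shares without thinning were 77.4%, 36.3%, 24.9% and 35.8%. In excitatory nuclei the thinned share was 3.11% (2.73% to 3.52%), which overlaps the interval of the 2.26% of oligodendrocyte nuclei (1.27% to 3.69%). In vascular nuclei it was 0.259% (0.00656% to 1.43%), below the excitatory interval. In astrocyte nuclei it was 3.33% (2.66% to 4.10%), which overlaps the excitatory interval too. Thinning left out 14 PV, 39 SST, 34 VIP, 24 NPY, 325 excitatory, 612 astrocyte, 630 oligodendrocyte and 34 vascular nuclei.

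For Kcnc2 the thinned shares were 35.2% in PV nuclei (30.9% to 39.7%), 23.9% in SST nuclei (20.3% to 27.8%), 9.37% in NPY nuclei and 6.25% in VIP nuclei. The VIP interval of 3.804% to 9.59% lies above the 1.16% to 3.51% of oligodendrocyte nuclei, and the excitatory share of 3.48% (3.08% to 3.91%) overlaps it. The astrocyte share of Kcnc2 was 2.07% (1.56% to 2.70%), below the VIP and excitatory intervals. For Kcnc4 the excitatory share was 3.90% (3.47% to 4.36%) and the NPY share 3.63% (1.89% to 6.25%). Both lie above the 0.752% of oligodendrocyte nuclei (0.245% to 1.75%). Both overlap the 3.48% of astrocyte nuclei (2.81% to 4.27%), so neither is separated from that class. In PV nuclei 1 of 463 held Kcnc4, 0.216% (0.00547% to 1.20%), no more than in oligodendrocyte nuclei or in the 0.518% of vascular nuclei, and reads as background. Kcnc1 and Kcnc2 were seen in the same nucleus in 14.3% of thinned PV nuclei (11.2% to 17.8%), 3.82% of SST nuclei, 1.81% of NPY nuclei, 0.145% of excitatory nuclei and 0 of 304 VIP nuclei, where the exact interval reaches 1.21%. Without thinning, 57.4% of PV nuclei, 18.9% of SST nuclei and 3.85% of VIP nuclei held both. The joint shares were not compared with those that independent capture of the 2 genes would give, so they do not show linked expression.

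**Figure D2:**
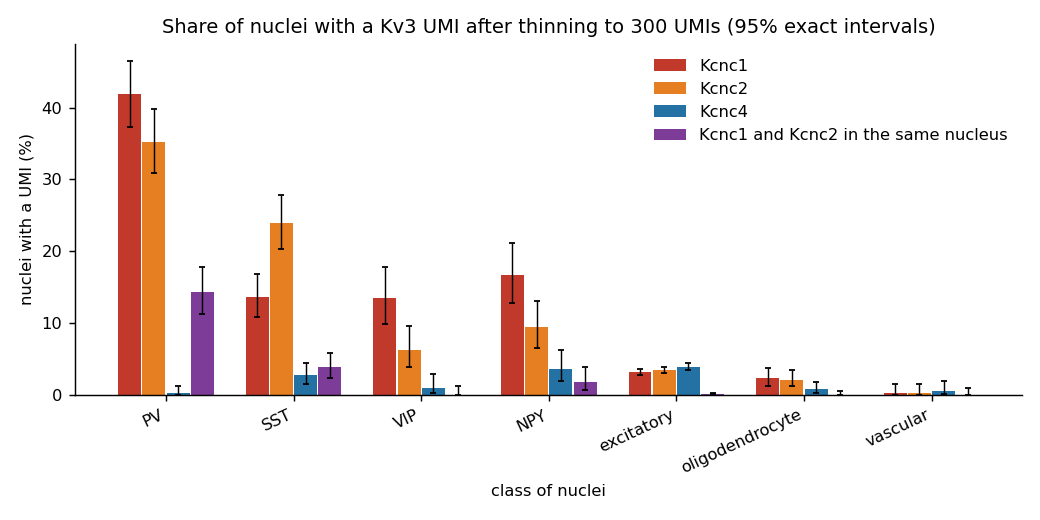
Percent of nuclei with at least 1 UMI (vertical axis) after thinning to 300 UMIs, by class (horizontal axis) and gene or gene pair (colour), with exact 95% binomial intervals. Kcnc1 is seen in 41.9% of PV nuclei and Kcnc2 in 35.2%, while Kcnc4 is seen in 0.216% of PV nuclei and 3.90% of excitatory nuclei.

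Set against all genes, Kcnc1 and Kcnc2 lie far out in the PV to excitatory comparison. Of 11950 genes with at least 100 UMIs in the classes, 8.15% were at least 2 times as high in PV as in excitatory nuclei and 15.2% were at least 2 times as low. Kcnc1 ranked 55 and Kcnc2 65 from the highest ratio. Kcnc4 was past the lower fold as counted, and no rank is given because its PV level reads as background. Between PV and SST nuclei, 9.7% of genes were at least 2 times as high and 11.4% at least 2 times as low in PV. Here Kcnc1 ranked 499 from the highest, below 161 genes with UMIs in PV and none in SST and leaving aside 65 with none in either. Kcnc2 with its ratio of 1.64 was not past this fold. Between SST and excitatory nuclei 6.4% of genes were at least 2 times as high and 13.4% at least 2 times as low in SST. Kcnc2 ranked 102 from the highest and Kcnc1, at a ratio of 4.44, ranked 189, while Kcnc4, at 0.735, was not past this fold and ranked 3367 from the lowest.

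Within SST nuclei, those that also held an Npy UMI (333 nuclei) had less Kcnc2 than those that did not (229 nuclei), at 8.08 (7.21 to 9.03) against 11.5 (10.04 to 13.0), higher without Npy in 9 of 10 libraries. The library ranges of 5.45 to 12.5 and 4.93 to 17.7 overlapped. The split rests on catching an Npy UMI, and nuclei with one were deeper, with a median of 1058 UMIs against 770, whose part in the difference was not tested. Kcnc4 stood at 0.546 against 1.68 in the same nuclei, on 21 and 34 UMIs, with overlapping libraries, and Kcnc1 at 5.56 against 5.04.

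From a list of genes known from fast-spiking neurons, 18 are reported, covering other potassium and sodium channels, pacemaker channels, release proteins and neurofilaments, compared in the same way. The counts below are over these 18 and not the whole list. All 18 passed 100 UMIs. Pvalb set the PV gate and is left out of the counts. Of the other 17, 11 were at least 2 times as high in PV as in excitatory nuclei, 1 was at least 2 times as low and 5 lay between, where 8.15% and 15.2% of all genes were past these folds. Their median ratio was 2.62 against 0.974 over all genes. Among these 17 the highest were Kcns3, a silent subunit that modifies other potassium channels, with 36.5 times the excitatory level (20.9 to 66.2, 44 PV UMIs), and Syt2, a calcium sensor of fast transmitter release, with 30.0 times (25.2 to 35.8, 373 PV UMIs). Both exceed the 14.8 of Kcnc1. The lowest of the 17 were Nefm, a neurofilament subunit, at a ratio of 0.403 (0.290 to 0.548), and Scn4b, a sodium channel beta subunit, at 1.47 (1.05 to 2.01). Both are above the counted 0.0901 of Kcnc4. Against SST nuclei 11 of the 17 were at least 2 times as high in PV, where 9.7% of all genes were. Their median ratio to SST was 2.20. Kcns3 was not separated from SST, at 1.33 (0.822 to 2.16), and its excitatory level was only 0.0198.

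**Figure D3:**
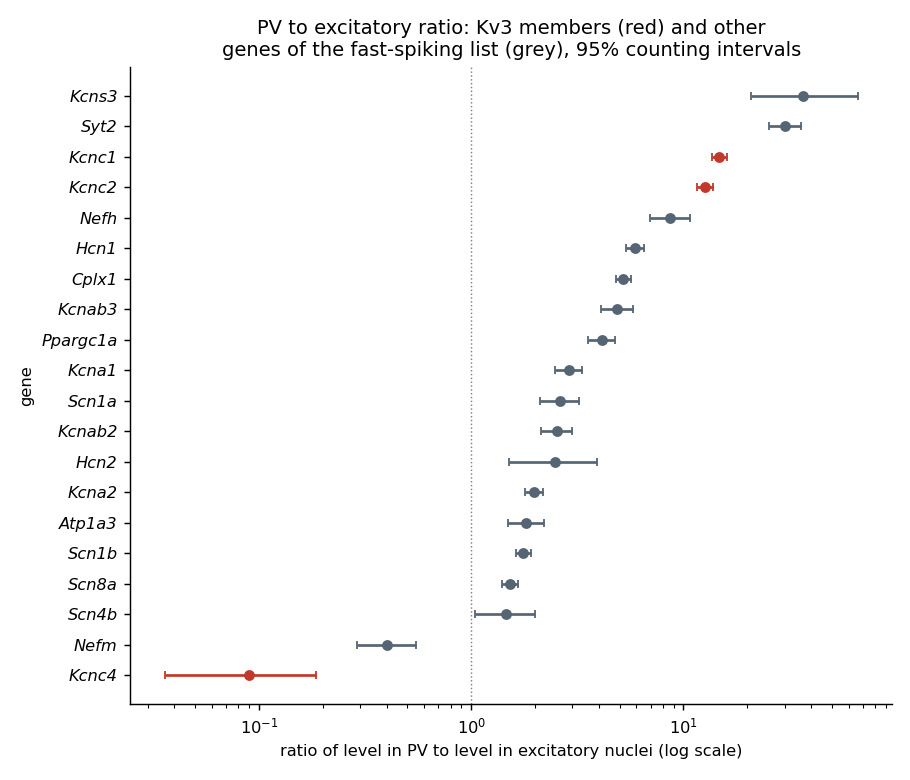
Ratio of the level in PV nuclei to that in excitatory nuclei (horizontal log axis) for the Kv3 members in red and 17 other listed genes in grey (vertical axis), with 95% counting intervals. Kcns3 at 36.5 and Syt2 at 30.0 stand above Kcnc1 at 14.8 and Kcnc2 at 12.6, and Kcnc4 is lowest, at 0.0901 as counted.

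Across the 14 classes the levels of Kcnc1 and Kcnc2, as log2(UMIs per 10000 + 0.05), had a Pearson correlation of 0.90, while Kcnc4 had 0.23 with Kcnc1 and 0.13 with Kcnc2. Over the 9 neuronal classes alone the values were 0.93, -0.68 and -0.66. The classes share their libraries and differ in depth, so these are descriptions. Among 7079 genes with at least 500 UMIs, those most like Kcnc1 were Ccnh, Scrt1, Lgi2, Chd6 and Xk, with correlations of 0.926 to 0.951. Those most like Kcnc2 were Fndc5, G3bp2, Kcnc1, Grik1 and Pygo1, at 0.897 to 0.929. For Kcnc4 they were Bcl11a, Prrt2, Tmem56, Snx10 and Gas7, at 0.893 to 0.909. Lgi2 had 5.55 UMIs per 10000 in PV against 0.958 in excitatory nuclei, and Prrt2 0.755 against 3.10. Of the genes most like Kcnc2, Fndc5 was higher in PV than in SST nuclei, at 4.28 against 2.66. Unlike Kcnc2, G3bp2 (3.14 against 3.34), Grik1 (1.82 against 3.97) and Pygo1 (0.657 against 1.18) were lower in PV than in SST.

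Accessibility was then compared at regions within 50 kb of the 3 genes, of which there were 41 around Kcnc1, 36 around Kcnc2 and 37 around Kcnc4 among 323369 counted regions. Reads in all regions numbered 1801883 to 2256073 per sample. Over the start of Sst there were 33 and 32 reads in SST, 2 and 2 in PV and 4 and 4 in VIP. Over the start of Vip there were 26 and 37 reads in VIP, 5 and 3 in SST and 0 and 2 in PV. A region in an intron of Pvalb had 22 and 41 reads in PV, 7 and 8 in SST and 3 and 2 in VIP. An exonic region of Pvalb did not separate the types, with 39 and 29 reads in PV, 25 and 27 in SST and 20 and 32 in VIP, and was called in no comparison. Most regions near the Kv3 genes were too low to test, as were most of all 323369 regions, of which 40338 were tested. Only 3 of 41, 5 of 36 and 15 of 37 passed the filter on low counts, and the 91 that did not had at most 16 reads in any sample and a median of 14 reads over the 6 samples together. In nuclei pooled from many cells, a region open in fewer cells and one less open in each cell cannot be told apart.

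For SST against PV, 1 of 23 was called at an edgeR quasi-likelihood adjusted p under 0.05, higher in SST, against 8.29% of all 40338 tested regions (3.96% higher and 4.33% lower). For SST against VIP 6 were called (36.3% of all), 3 higher (17.8% of all) and 3 lower (18.4%) in SST, and for PV against VIP 6 (49.1% of all), 4 higher (24.6%) and 2 lower (24.6%) in PV. These counts were not tested against those of all regions. At Kcnc4 5 of 15 regions were called in each comparison with VIP, at Kcnc2 1 of 5, and at Kcnc1 0 of 3. At Kcnc1 1 of these 3 had an unadjusted edgeR p under 0.05, for PV against VIP, where 22543 of all 40338 tested regions did. DESeq2 called 0 at Kcnc1 as well. The tested regions from -8.7 kb to -42.3 kb of the Kcnc4 start have their centres inside another gene, Slc6a17. They are counted with Kcnc4 here. Each group has 2 samples, which the methods take from separate animals. The p-values rest on a spread between replicates that was estimated over all 6 samples together, with information shared across regions.

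Of the 114 regions, 12 shared at least 1 base with a deposited peak in both replicates of SST, 13 in PV and 14 in VIP. Of all 323369 regions 10.9%, 10.7% and 11.8% did so. None of the elements screened in the viral library lay within 100 kb of these genes.

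At Kcnc1 the region over the gene start (chr7:46396107-46397307) had 8 and 11 reads in SST, 9 and 14 in PV and 18 and 14 in VIP. It was not called, with a log2 fold change of -0.27 (SE 0.47) for PV against VIP. A region in the first kilobases of the gene (chr7:46397034-46398001, exonic) had 21 and 10 reads in SST, 21 and 27 in PV and 13 and 13 in VIP. PV and VIP did not overlap there, and the log2 fold change of 1.08 (SE 0.46) had an edgeR adjusted p of 0.0567. An intronic region 25.2 kb from the start had 4 to 12 reads in each sample and was not called. The class with the highest Kcnc1 level thus had no called region at the gene among these 3.

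At Kcnc2 a region just before the gene (chr10:112269876-112270808, centre 0.8 kb upstream of the GENCODE start and overlapping the promoter window printed above) was the most accessible. It had 31 and 42 reads in SST, 47 and 50 in PV and 69 and 93 in VIP. The 3 types did not overlap, in the order VIP, PV, SST, which is not the order of Kcnc2 UMIs. The log2 fold change of SST against VIP was -1.09 (SE 0.29, edgeR adjusted p 0.0071), and those of PV against VIP (-0.53, SE 0.28) and SST against PV (-0.56, SE 0.30) were not called. An exonic region 0.7 kb into the gene had 14 and 20, 19 and 24, and 20 and 43 reads in the same types, and was not called.

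One intronic region of Kcnc2 had the most reads in PV, though its call against VIP was lost under DESeq2 and without the filter on low counts. It lies 40.3 kb into the gene (chr10:112311040-112311750) and had 16 and 16 reads in PV, 2 and 8 in SST and 3 and 4 in VIP. PV did not overlap the others, with a log2 fold change of 2.35 (SE 0.59) against VIP at an edgeR adjusted p of 0.00365. SST against PV gave -1.80 (SE 0.55) at an adjusted p of 0.0510, just outside the threshold. An exonic region at 106.2 kb had 11 and 28 reads in VIP against 4 and 10 in SST and 5 and 9 in PV, and was not called. The central 300 bases of the called intronic region, chr10:112311246-112311545 on the plus strand, hold none of the 3 motifs set in capitals.
Kcnc2 region +40.3 kb: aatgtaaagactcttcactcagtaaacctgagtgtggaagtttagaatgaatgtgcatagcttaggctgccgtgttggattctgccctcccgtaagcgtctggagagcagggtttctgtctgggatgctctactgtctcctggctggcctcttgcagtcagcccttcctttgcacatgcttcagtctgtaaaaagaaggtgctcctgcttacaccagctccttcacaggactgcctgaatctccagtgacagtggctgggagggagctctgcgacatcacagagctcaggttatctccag

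At Kcnc4 the 2 regions over the gene start as GENCODE draws it were not called. The one centred at +0.1 kb (chr3:107459122-107459722) had 20 and 12 reads in SST, 5 and 8 in PV and 10 and 14 in VIP, lowest in PV with no overlap with either type, and a log2 fold change of 1.15 (SE 0.54) for SST against PV at an edgeR adjusted p of 0.197. The other, centred 0.5 kb upstream and overlapping the first, had 28 and 20, 21 and 15, and 19 and 37 reads. The promoter window printed above also overlaps an exonic region centred 1.0 kb into the gene. That region was called higher in SST than in VIP and is described below.

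An intronic region of Kcnc4 was highest in SST. It lies 17.1 kb from the start (chr3:107442077-107442923), has a mean phyloP conservation score of 0.710, and had 25 and 55 reads in SST, 7 and 9 in PV and 5 and 7 in VIP. It was the only region called between SST and PV, with a log2 fold change of 2.14 (SE 0.46, edgeR adjusted p 0.0100), and SST against VIP gave 2.75 (SE 0.48, adjusted p 0.000304). The PV against VIP difference of 0.61 (SE 0.61) was not called. DESeq2, a fit without the filter, and a fit without PV replicate 1 each lost the call against PV, where the highest adjusted p was 0.204, and none of 10 alternatives lost the call against VIP. The Kcnc2 call at 40.3 kb was lost under DESeq2 and without the filter, the one at -0.8 kb without VIP replicate 2, and the PV against VIP call at -32.1 kb without PV replicate 2.

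Downstream of Kcnc4, 28.1 kb from the start and 6463 bp beyond the end of the gene, a region (chr3:107431150-107431840) was open in VIP. It had 43 and 60 reads in VIP, 3 and 2 in SST and 9 and 2 in PV, with log2 fold changes of -4.23 (SE 0.55, edgeR adjusted p 2.7e-05) for SST and -3.002 (SE 0.48, adjusted p 0.00014) for PV against VIP. The latter was -4.41 without PV replicate 1 and -2.37 without PV replicate 2, called both times. Upstream, at -23.9 kb from the start and inside the gene Slc6a17, a region (chr3:107483077-107483827) showed the reverse, with 76 and 79 reads in SST, 73 and 54 in PV and 10 and 20 in VIP. Its log2 fold changes against VIP were 2.43 for SST (SE 0.34, adjusted p 5.33e-05) and 2.28 for PV (SE 0.35, adjusted p 9.77e-05). At -32.1 kb, nearer to the start of Slc6a17, a region (chr3:107491254-107492054) had 52 and 61 reads in VIP, 6 and 12 in SST and 23 and 13 in PV, and was lower than VIP in SST by a log2 fold change of -2.58 (SE 0.41) and in PV by -1.45 (SE 0.37). Slc6a17 encodes a vesicular amino acid transporter, and which gene these upstream regions act on was not tested.

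The central 300 bases of 3 of these regions are shown as examples of 3 patterns, highest in SST, highest in VIP and lowest in VIP, on the plus strand at chr3:107442351-107442650, chr3:107431346-107431645 and chr3:107483303-107483602.
Kcnc4 region +17.1 kb: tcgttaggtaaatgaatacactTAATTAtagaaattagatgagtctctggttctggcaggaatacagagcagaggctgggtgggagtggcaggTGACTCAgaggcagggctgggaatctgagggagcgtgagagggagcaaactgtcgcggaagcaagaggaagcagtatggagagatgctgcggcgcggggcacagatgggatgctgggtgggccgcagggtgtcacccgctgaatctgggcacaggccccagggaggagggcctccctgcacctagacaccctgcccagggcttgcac
Kcnc4 region +28.1 kb: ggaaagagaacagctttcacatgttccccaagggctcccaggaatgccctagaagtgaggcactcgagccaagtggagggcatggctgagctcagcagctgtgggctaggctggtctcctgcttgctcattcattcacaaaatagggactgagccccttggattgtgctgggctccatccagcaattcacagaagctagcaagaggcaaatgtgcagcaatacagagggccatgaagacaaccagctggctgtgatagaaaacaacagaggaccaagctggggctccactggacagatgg
Kcnc4 region -23.9 kb: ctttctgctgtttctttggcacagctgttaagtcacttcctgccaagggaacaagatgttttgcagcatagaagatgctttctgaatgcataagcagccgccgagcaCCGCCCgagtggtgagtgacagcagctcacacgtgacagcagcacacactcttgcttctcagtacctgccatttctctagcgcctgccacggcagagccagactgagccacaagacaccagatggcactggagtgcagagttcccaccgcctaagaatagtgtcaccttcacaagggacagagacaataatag
The region high in SST holds 1 TAATTA and 1 TGACTCA. In the central windows of 40329 tested regions, 3.8% held TAATTA and 8.19% held TGACTCA. The region at -23.9 kb holds 1 GGGCGG, present in 33.9% of these windows, and the region open in VIP holds none of the 3. AGGTCA, a core bound by nuclear receptors, was also searched and is in none of the 7 printed windows, against 12.3% of the windows of tested regions. A match is a run of letters and not a shown binding site.

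Outside the naming rule and chosen after their values were seen, 3 more regions near Kcnc4 were called in 1 comparison each. A region 1.0 kb into the gene (chr3:107458116-107459034) was exonic, overlapped the printed Kcnc4 promoter window and had a phyloP score of 1.19. It had 21 and 18 reads in SST, 6 and 9 in PV and 6 and 4 in VIP. It was higher in SST than in VIP by a log2 fold change of 2.00 (SE 0.53). Regions at -8.7 kb and -28.6 kb, both inside Slc6a17, were higher in PV than in VIP, by 2.16 (SE 0.55) and 2.92 (SE 0.63). They had 17 and 15 and then 16 and 12 reads in PV, against 5 and 3 and then 2 and 2 in VIP. Which gene they act on was not tested. The calls at +1.0 kb and -8.7 kb were lost under DESeq2, without the filter and without VIP replicate 2, with an adjusted p of up to 0.107 and 0.0842, and the one at -28.6 kb without PV replicate 1, at 0.0710. Summed over all regions within 50 kb, CPM were 169 and 170 in SST, 163 and 154 in PV and 144 and 145 in VIP at Kcnc4. At Kcnc1 they were 79.3 and 69.1 in SST, 79.3 and 115 in PV and 91.3 and 57.7 in VIP, and at Kcnc2 52.5 and 64.3, 73.2 and 88.8, and 76.5 and 94.8. The order of these sums was SST, PV, VIP at Kcnc4 and the types overlapped at Kcnc1. The Kcnc4 sums include the region at -23.9 kb, inside Slc6a17. It had 76 and 79 reads in SST, 73 and 54 in PV and 10 and 20 in VIP. The order of the sums without that region was not computed. At Kcnc2 the SST sums were lowest, and PV and VIP overlapped. Of the called regions, Kcnc4 +17.1 kb and +1.0 kb had the highest phyloP scores. The score was 0.639 at Kcnc2 -0.8 kb and -0.0225 at Kcnc2 +40.3 kb. Near Kcnc4 it was 0.193 at +28.1 kb, 0.111 at -8.7 kb and 0.0958 at -23.9 kb. It was 0.0330 at -28.6 kb and 0.340 at -32.1 kb.

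**Figure D4:**
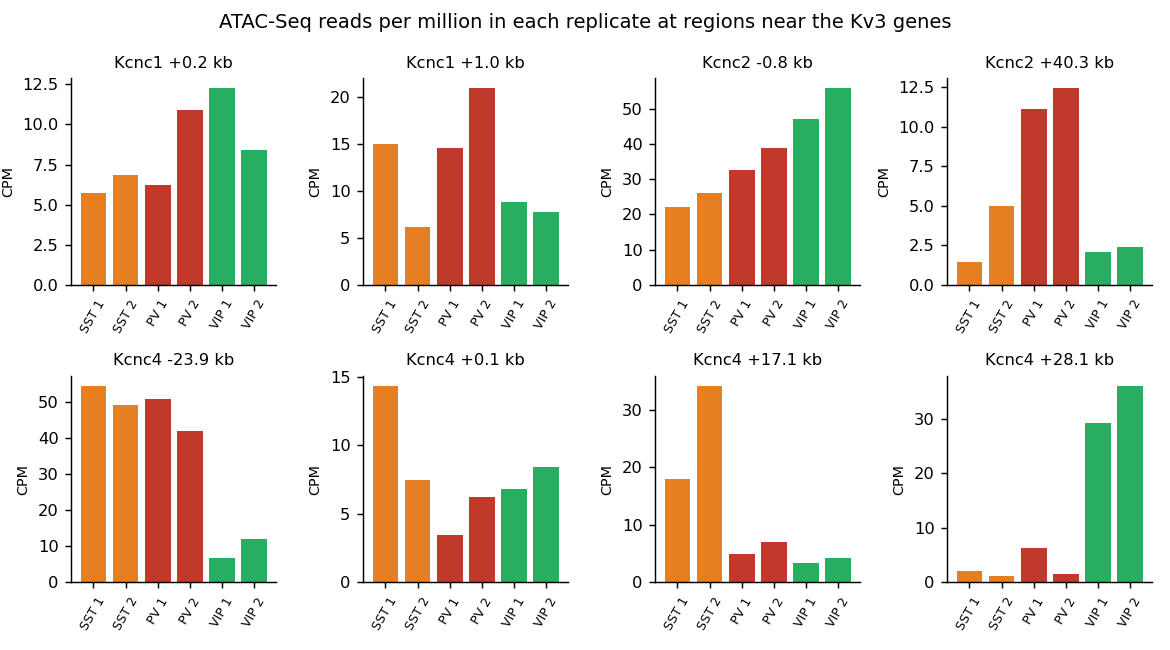
ATAC-Seq CPM after TMM (vertical axes) in the 2 replicates each of SST (orange), PV (red) and VIP (green) at 8 regions named by their distance from the gene start. PV is highest at Kcnc2 +40.3 kb, SST at Kcnc4 +17.1 kb and VIP at Kcnc4 +28.1 kb, while VIP is lowest at Kcnc4 -23.9 kb.

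**Figure D5:**
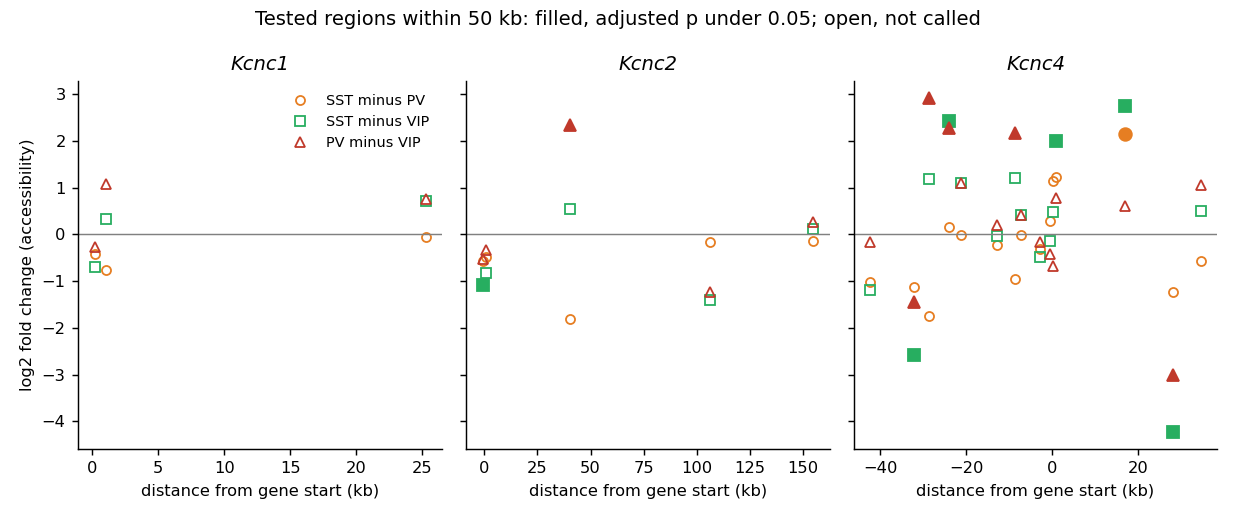
Log2 fold change in accessibility (vertical axis) of the 23 tested regions against distance from the gene start in kb (horizontal axis) for 3 comparisons, filled where the adjusted p is under 0.05. No point is filled at Kcnc1, 2 are filled at Kcnc2 and 11 at Kcnc4, with 1 filled circle for SST against PV at +17.1 kb.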

How the data were processed

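For snRNA-Seq, the deposited values are UMI counts per barcode and gene, which the authors made from inDrops reads, and the labels name GRCm38. For ATAC-Seq, the authors trimmed reads with Trimmomatic 0.33, aligned them to mm10 with Subread 1.4.6-p3, and removed duplicates, and the deposited read counts per reference region are raw. The deposited peaks were called per replicate and carry −log10 q-values, and the deposited phyloP score of a region is the authors' mean. The authors' specificity folds were not used.

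Here UMIs were summed per class and library over non-viral UMIs, without doublet calling, since gates bar opposing markers. Levels are not scaled to length, so genes were not ranked against each other by level. Glial gates needed 3 UMIs of a list, and layers 2. Ratios carry exact conditional intervals. Read counts were tested with edgeR 4.0.16 in R 4.3.3 (quasi-likelihood, TMM, filterByExpr) over all 6 samples, with Benjamini-Hochberg adjustment at 0.05, and the code was tested on simulated data. DESeq2 1.42.0 was an alternative. Python 3.11.15 was used elsewhere.

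The genes and lists were chosen with earlier results of these data known. Named by rule were the members, the 3 highest and 2 lowest of the fast-spiking list, the 5 genes most alike, regions over gene starts and up to 4 regions per gene with the lowest adjusted p. Of the markers, 1 (Hs3st4) was not a column in the files used. Some genes of the fast-spiking list are not reported here, left out by name and not by value, and its counts leave them out. The ATAC-Seq samples were taken as unpaired, since the methods take each from a single animal. Same-numbered deviations had correlations of 0.023, 0.030 and -0.037. At these low counts that cannot show whether same-numbered samples were processed together.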

Additional observations from a re-analysis of the deposited data

Results flagged for a closer look

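In library 2-4, Kcnc4 stood at 1.6 UMIs per 10000 in VIP nuclei, on 5 UMIs in 35 nuclei, and the gap to the highest of the other 9 libraries (0 to 0.742) was wider than a gap test on 10 values allows at its 95% level. It was the only one of 15 gene and class pairs checked. Chance gives such a gap in about 1 in 20 pairs, so 1 among 15 is no more than about what chance gives. Without this library the ratio of PV to VIP nuclei for Kcnc4 was 0.273, against 0.236 with it.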

How the results depend on the processing

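Over 171 alternatives to the 9 ratios between PV and other nuclei, none reversed, 161 stayed inside the counting interval of the reported ratio and 10 did not. The Kcnc1 ratio of PV to excitatory nuclei was 13.6 with no limits on other markers, 17.4 after thinning, 12.7 in library set 1 and 17.1 in set 2, and that of Kcnc2 was 10.1 in set 1 and 14.9 in set 2. After thinning, PV to VIP for Kcnc1 was 3.43 and PV to SST for Kcnc2 1.45. In set 1 alone Kcnc4 gave 0.033 for PV to excitatory, 0.04 for PV to SST and 0.111 for PV to VIP. Library 2-3 holds 4 of the 7 Kcnc4 UMIs of PV nuclei, and without it these 2 ratios were 0.0448 and 0.0631 and PV to VIP 0.107. With no limits on other markers the 3 Kcnc4 ratios, to excitatory, SST and VIP, were 0.143, 0.198 and 0.443, after thinning the first 2 were 0.0516 and 0.0807, and in set 2 PV to SST was 0.191. The other PV to VIP and PV to excitatory values with 1 library left out reached 0.28 and 0.106.

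Regions called for SST against PV numbered 0 under DESeq2 and 0 without the filter on low counts, and 0 to 2 with 1 sample left out (0 without PV replicate 1, 2 without either SST or VIP replicate). For PV against VIP they numbered 3 in a 10 kb window and 10 in a 100 kb window, and 5 to 10 with 1 sample left out (10 without either SST replicate). For SST against VIP they numbered 4 to 9. Over all regions, DESeq2 called 430, 7456 and 11614 for SST against PV, SST against VIP and PV against VIP, against 3344, 14633 and 19824. Without the filter edgeR called 0, 7019 and 10868, and for SST against PV 20689 of 310118 regions with a read then had an unadjusted p under 0.05. With 1 sample left out the counts ran from 806 to 8576, 8581 to 19017 and 12980 to 27615. Peaks in both replicates, asked to cover 50% of a region, covered 0 regions in SST, 0 in PV and 0 in VIP, since the regions span 601 to 1330 bp and a peak about 300. At a −log10 q of at least 10 they covered 6, 2 and 8. The share of all regions was not counted under either of these rules.

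With the replicate number as a replicate block, 1, 7 and 6 regions near the genes were called, and 2557, 13993 and 19159 in all. The numbers mark no shared animal. The shared barcodes and the counting of the viral column were alternatives chosen after seeing the data. Few reads per region limit the precision at Kcnc1 and Kcnc2, and few UMIs in PV nuclei limit that of the Kcnc4 ratios. The cause of these shifts was not tested.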
